A study of Mus musculus with 14 samples.

Results

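The 10 genes described here encode enzymes and subunits of ceramide and sphingolipid synthesis, Sptlc1, Sptlc2, Sptssa, Cers2, Cers5, Cers6, Degs1, Ugcg, Sgms1 and Asah1. They were chosen by name, as steps of a pathway that starts from palmitoyl-CoA, out of 55291 gene symbols in the expression tables of 14 mouse libraries. All 10 had enough counts to be tested in both experiments. The study asked how acetyl-CoA carboxylase, the enzyme that makes malonyl-CoA for fatty acid synthesis, bears on lipid use by CD8+ T cells. In the culture experiment, splenocytes of OT-1 mice, whose T cells carry a transgenic receptor for an ovalbumin peptide, were activated with 1 µg/mL of that peptide and 200 U/mL interleukin-2 for 3 days and expanded for 4 more. They were kept throughout with 100 nM of the acetyl-CoA carboxylase inhibitor ND-646 (4 libraries) or with DMSO vehicle (4 libraries). In the tumour experiment, CD8+ cells were enriched and sorted from MCA205 fibrosarcomas (3 libraries) and from spleens (3 libraries). The fibrosarcomas were taken 14 days after injection under the skin of C57BL/6 mice. The same 14 days after tumour injection are given for the spleen libraries. The labels give the genotype of every group as WT and the cell type as CD8+ T cells, and state no age or sex. They name no sort after the culture, call the tumour samples pooled, and do not say which libraries came from separate animals or cultures. The p-values below are therefore set by how far these libraries vary, and that variation may be only technical.

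Sphingolipid synthesis begins on the endoplasmic reticulum, where serine palmitoyltransferase joins serine to palmitoyl-CoA. After a reduction, ceramide synthases attach a second fatty acid, and a desaturase turns the dihydroceramide into ceramide. Ceramide then receives a head group in the Golgi, becoming sphingomyelin or glucosylceramide, the base of the glycosphingolipids, or it is cut by ceramidases to sphingosine, the source of sphingosine 1-phosphate. In T cells, sphingomyelin and glycosphingolipids are part of the membrane domains around the antigen receptor, and sphingosine 1-phosphate guides exit from lymphoid organs.

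Estimated counts totalled 23463093 to 33807709 per library in the culture table and 19577963 to 21024516 per library in the tumour table. All 10 genes that mark CD8 T cells were detected in both experiments, with a summed level of 2857 to 2990 CPM (counts per 1000000 of a library's TMM-adjusted total) in ND-646 libraries and 3457 to 3642 CPM in vehicle libraries. With ND-646 the list split, 5 of the 10 being lower and 3 higher (Cd247, Lat and Cd2), while Lck and Zap70 were not called. The 10 genes summed to 2581 to 3522 CPM in tumour libraries and 6351 to 6377 CPM in spleen libraries, and all 10 were lower in tumour libraries. Tumour libraries also held 10678 to 15473 CPM of 14 connective tissue and fibrosarcoma markers, led by Col3a1 at a mean of 3083 CPM, against 2.04 to 17.3 CPM in spleen libraries. All 13 of these 14 that could be tested were higher in tumour libraries. Every tumour value below is a level in libraries that hold these transcripts, and which cells each member's RNA came from was not tested. In bulk RNA, fewer cells of a type and less RNA per cell cannot be told apart.

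Per kilobase of the longest protein-coding transcript, the level of the 10 genes spanned from 2.13 to 80.1 CPM per kilobase, and the ceramide synthase Cers2 was at or near the top of every group. In ND-646 libraries Cers2 led with 73.0 ± 2.36 CPM per kilobase, followed by the dihydroceramide desaturase Degs1 at 61.8 ± 2.22 and the glucosylceramide synthase Ugcg at 38.0 ± 1.55 (SD, n = 4). In vehicle libraries Degs1 at 67.5 and Cers2 at 67.1 CPM per kilobase overlapped, and Ugcg stood at 54.0. In tumour libraries Cers2 at 80.1 and Ugcg at 74.95 CPM per kilobase overlapped, and in spleen libraries Ugcg at 61.96 and Cers2 at 58.0 did so. The low end held the sphingomyelin synthase Sgms1 and the ceramide synthase Cers6, which overlapped at 2.97 and 2.73 CPM per kilobase in ND-646 libraries and at 7.555 and 7.56 in tumour libraries. In spleen libraries Sgms1 stood at 7.07 CPM per kilobase, with the acid ceramidase Asah1 at 5.97 and Cers6 at 2.17. Between these ends lay the small serine palmitoyltransferase subunit Sptssa, at 29.1 to 39.6 CPM per kilobase over the 4 groups, and the large subunits Sptlc1, at 17.5 to 20.6, and Sptlc2, at 8.63 to 10.5. The order in the middle depended on the transcript length used, and with the median length instead of the longest Cers2 ranked 1 in every group.

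**Figure D1:**
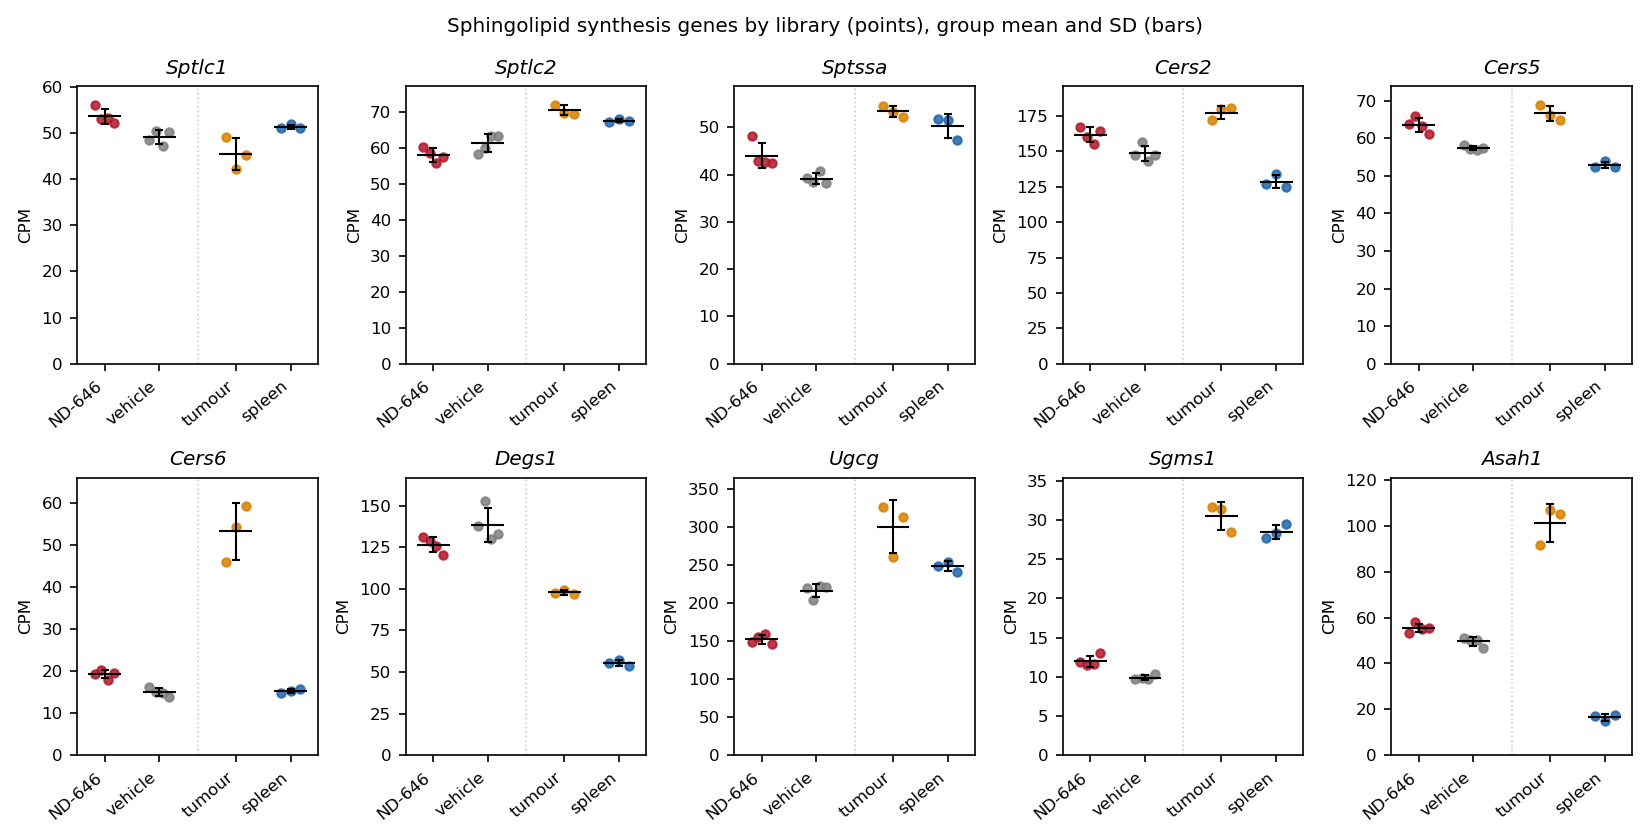
Levels of the 10 genes in CPM (y axes, linear from 0) in each library (points), with group means and SDs (bars); ND-646 and vehicle cultures are left of the dotted line, tumour and spleen samples right of it. Asah1 lies at 91.7 to 107 CPM in tumour libraries against 14.8 to 17.7 CPM in spleen libraries, and Ugcg at 146 to 160.0 CPM in ND-646 libraries against 204 to 222 CPM in vehicle libraries.

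The promoter windows of Cers6, Degs1 and Ugcg are shown with a single kind of short motif marked in each, because they had the largest differences among the members with a window, Ugcg with ND-646 and Cers6 and Degs1 in tumour libraries. Sequences are RefSeq's on GRCm38.p6, from 250 bases before to 50 bases after the annotated start, on the gene's own strand. Capitals mark CACGTG (an E-box, which reads the same on both strands) in Cers6 and Degs1, and CCGCCC, the complement strand of the GC box GGGCGG, in Ugcg. The windows are Cers6 at chr2:68861191-68861490 on the plus strand, Degs1 at chr1:182282146-182282445 on the minus strand, and Ugcg at chr4:59189300-59189599 on the plus strand.
Cers6: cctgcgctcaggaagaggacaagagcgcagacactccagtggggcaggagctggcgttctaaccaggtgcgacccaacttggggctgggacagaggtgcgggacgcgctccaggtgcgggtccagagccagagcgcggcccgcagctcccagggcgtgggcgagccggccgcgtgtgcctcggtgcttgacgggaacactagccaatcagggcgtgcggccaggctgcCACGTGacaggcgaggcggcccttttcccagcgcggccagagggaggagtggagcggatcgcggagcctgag
Degs1: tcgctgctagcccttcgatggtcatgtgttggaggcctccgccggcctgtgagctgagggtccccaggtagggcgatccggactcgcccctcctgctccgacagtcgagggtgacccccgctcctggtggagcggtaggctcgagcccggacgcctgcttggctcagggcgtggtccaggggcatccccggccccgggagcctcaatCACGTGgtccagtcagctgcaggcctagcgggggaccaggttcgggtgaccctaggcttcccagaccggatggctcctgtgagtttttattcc
Ugcg: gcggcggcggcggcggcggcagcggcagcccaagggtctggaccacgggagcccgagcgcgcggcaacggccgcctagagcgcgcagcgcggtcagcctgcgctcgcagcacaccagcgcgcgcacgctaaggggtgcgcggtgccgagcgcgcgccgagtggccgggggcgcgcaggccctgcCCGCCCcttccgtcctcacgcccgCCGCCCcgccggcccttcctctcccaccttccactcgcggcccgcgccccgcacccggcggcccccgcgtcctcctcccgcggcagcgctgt
The E-box began at position -22 in the Cers6 window and at -43 in the Degs1 window, counted from the annotated start. The Cers6 window also held CCAAT from position -48, left in lower case. All of the 10 genes but Asah1 had a window, 13 windows for 9 genes, and CACGTG occurred in 3 of these 13, those of Cers2, Cers6 and Degs1, against 7.15% of the 32851 mouse windows of this length. GGGCGG occurred on either strand in 8 of the 13 windows, against 35.7% of all windows, and CCAAT on either strand in 6 of the 13, against 37.4%. The marked sites in the printed windows do not overlap one another. The motifs were picked after the sequences were seen, and a match is a description of letters only.

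With ND-646, Ugcg, which puts glucose on ceramide and so commits it to the glycosphingolipids, fell and was the member with the largest difference. It averaged 153 ± 6.23 CPM in ND-646 libraries and 217 ± 8.54 CPM in vehicle libraries (SD, n = 4 each), 29.6% lower. Sptlc1 and Sptssa of serine palmitoyltransferase, the ceramide synthases Cers2, Cers5 and Cers6, Sgms1 and Asah1 rose by smaller amounts, Cers6 the most, by 28.4%, while the catalytic subunit Sptlc2 was not called. By edgeR's quasi-likelihood test at an adjusted p of 0.05, 7 of the 10 genes were higher, 2 were lower and 1 was not called, where 56.3% of all 14251 genes tested were called, 29.8% higher and 26.5% lower. None of the 10 differed by 2-fold, as 2.63% of all genes did upward and 4.37% downward, and the libraries of the groups did not overlap for 7 of the 10, against 51.1% of all genes. The median log2 fold change of the 10 was 0.14, and that of all genes tested was 0.01.

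At the entry step, Sptlc1, the subunit without the catalytic lysine, had 56.1, 53.0, 53.1 and 52.2 CPM in ND-646 libraries, against 48.6, 50.4, 47.1 and 50.2 CPM in vehicle libraries. The groups did not overlap, and the log2 fold change was 0.13 ± 0.04 (SE), adjusted p = 0.0152. The catalytic subunit Sptlc2 averaged 57.9 ± 1.84 CPM in ND-646 libraries and 61.2 ± 2.49 CPM in vehicle libraries, and the ranges overlapped. Its log2 fold change was -0.08 with a 95% interval of -0.17 to 0.01, adjusted p = 0.124. Sptssa, the small subunit that raises the enzyme's activity, averaged 44.0 ± 2.70 CPM with ND-646 and 39.1 ± 1.17 CPM with vehicle, a log2 fold change of 0.17 ± 0.05, adjusted p = 0.00627. ND-646 library 1 was the highest of its group for both Sptlc1 and Sptssa, and without it the call of Sptlc1 was lost, at a log2 fold change of 0.09 and an adjusted p of 0.0796. DESeq2's Wald test did not call Sptlc1 either, at an adjusted p of 0.0509.

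Among the ceramide synthases, Cers6, which prefers palmitoyl-CoA as the second chain, had 19.4, 20.2, 17.9 and 19.5 CPM in ND-646 libraries, against 16.2, 15.1, 14.8 and 13.9 CPM in vehicle libraries. Every ND-646 library lay above every vehicle library, and the log2 fold change was 0.36 ± 0.07, adjusted p = 0.000129. Cers5, which also prefers palmitoyl-CoA, averaged 63.5 ± 1.88 CPM with ND-646 and 57.4 ± 0.626 CPM with vehicle, also without overlap, a log2 fold change of 0.15 ± 0.04, adjusted p = 0.0034. Cers2, which uses very long acyl chains and is the most abundant of the 3, averaged 162 ± 5.22 CPM with ND-646 and 149 ± 5.47 CPM with vehicle, with overlapping ranges. Its log2 fold change was 0.12 ± 0.04, adjusted p = 0.0117, and without ND-646 library 1 it was 0.09 with an adjusted p of 0.0562. The make-up of the 3 per kilobase moved little. Cers6 was 2.77% ± 0.103 of their sum in ND-646 libraries and 2.37% ± 0.150 in vehicle libraries, without overlap. With the median transcript length the shares were 1.71% in ND-646 libraries and 1.46% in vehicle libraries. A further ceramide synthase outside the 10, Cers4, named after its values were seen, was not higher but averaged 38.3 ± 3.80 CPM with ND-646 and 42.5 ± 1.45 CPM with vehicle, with overlap, a log2 fold change of -0.15 ± 0.06, adjusted p = 0.0444. That call was lost in limma-voom (adjusted p = 0.0548) and without any vehicle library, ND-646 library 1 or ND-646 library 4 (adjusted p from 0.0516 to 0.122), and scaled to CD8 T cell genes the value was 0.02.

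Degs1, which introduces the double bond that makes ceramide, had 131, 129, 126 and 120.5 CPM in ND-646 libraries, against 138, 152, 129.8 and 133 CPM in vehicle libraries. The ranges overlapped, the log2 fold change was -0.13 ± 0.05, and the adjusted p was 0.0253. That call rested on single libraries, since the adjusted p was 0.0521 without vehicle library 1, 0.131 without vehicle library 2 and 0.0577 without ND-646 library 4, with log2 fold changes of -0.13, -0.08 and -0.12.

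At the branch to head groups, Ugcg had 149, 155, 160.0 and 146 CPM in ND-646 libraries, against 219.7, 204, 222 and 221 CPM in vehicle libraries. All ND-646 libraries lay below all vehicle libraries, and the log2 fold change was -0.51 ± 0.04, adjusted p = 6.03e-09. Sgms1, the Golgi sphingomyelin synthase, moved the other way, with 11.8, 11.4, 11.7 and 13.0 CPM in ND-646 libraries, against 9.66, 9.80, 9.71 and 10.4 CPM in vehicle libraries. The groups did not overlap, the log2 fold change was 0.28 ± 0.07, and the adjusted p was 0.00254. The ratio of Ugcg to Sgms1 counts was 11.26 to 13.69 in ND-646 libraries and 20.83 to 22.89 in vehicle libraries. Asah1, which cuts ceramide in lysosomes, averaged 55.5 ± 1.83 CPM with ND-646 and 49.6 ± 2.09 CPM with vehicle, a log2 fold change of 0.16 ± 0.04, adjusted p = 0.00374, without overlap.

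Markers of other cells also differed between the cultures. A list of 12 macrophage, monocyte and neutrophil markers summed to 5.70 to 7.38 CPM in ND-646 libraries and 17.97 to 20.1 CPM in vehicle libraries, with 3 of its 4 tested genes lower and C1qc, S100a8 and S100a9 at 0 in every library. NK cell markers summed to 6.67 to 7.29 CPM with ND-646 and 24.2 to 27.1 CPM with vehicle, 3 of 4 tested being lower, and B cell markers to 148 to 173 CPM with ND-646 and 116 to 132 CPM with vehicle, where Ighm was higher and 6 of 7 tested were lower. Their part in the differences was not tested. Scaling each library to the 10 CD8 T cell genes in place of all genes shifted the median gene by 0.17 on the log2 scale and turned the share of higher genes among all called from 52.9% into 77.6%. On that scale Ugcg was still lower, at a log2 fold change of -0.33, the same 7 genes were higher, and Degs1 and Sptlc2 turned to 0.04 and 0.09, neither past the threshold.

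**Figure D2:**
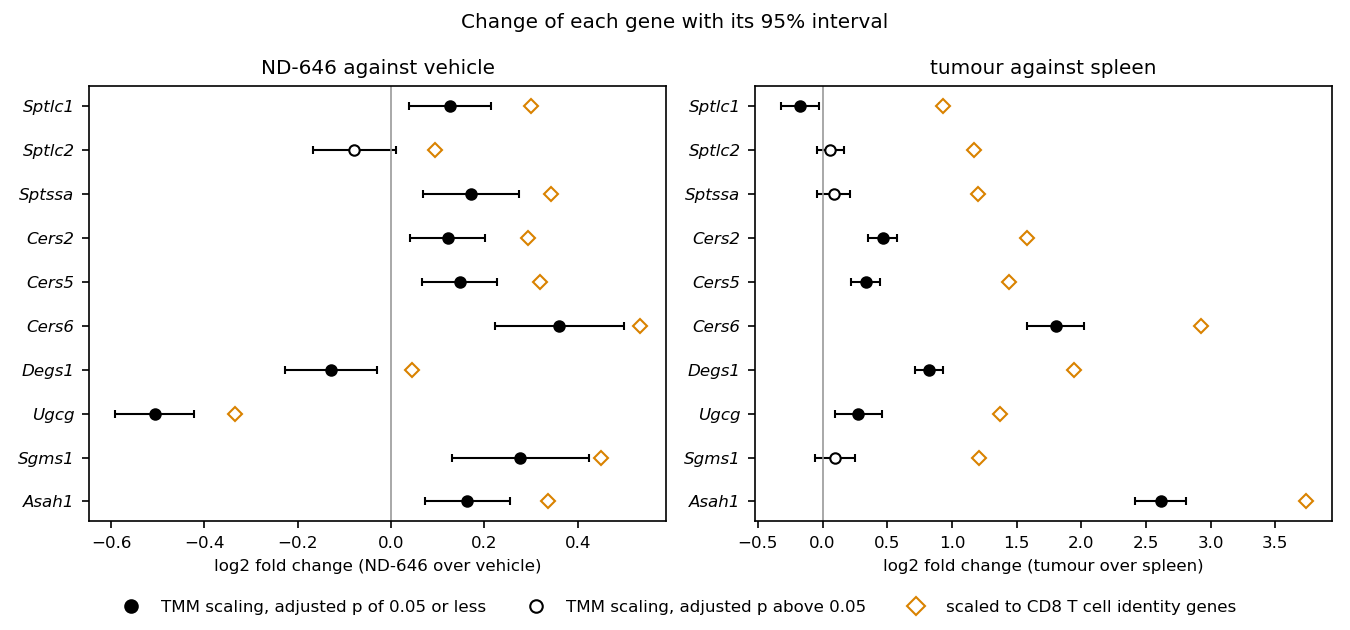
Log2 fold change of each gene with its 95% interval, for ND-646 over vehicle and for tumour over spleen, TMM-scaled (circles, filled where called) and, with no interval, scaled to the 10 CD8 T cell genes (diamonds). On the TMM scale Ugcg lies at -0.51 with ND-646, and Asah1 at 2.61 and Cers6 at 1.80 in tumour over spleen; the diamonds lie further right for every gene.

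Sorted tumour samples differed from spleen most in Asah1, Cers6 and Degs1. Asah1 averaged 101.2 ± 8.32 CPM in tumour libraries and 16.5 ± 1.55 CPM in spleen libraries (SD, n = 3 each), 6.11-fold higher, Cers6 was 3.49-fold higher and Degs1 1.77-fold higher. Cers2, Cers5 and Ugcg were also higher by smaller amounts, Sptlc1 was lower, and Sptlc2, Sptssa and Sgms1 did not pass the test. By edgeR's quasi-likelihood test 6 of the 10 genes were higher and 1 was lower, in a comparison where 83.8% of 15042 genes tested were called, 43.6% higher and 40.2% lower. At least 2-fold higher were 2 of the 10, against 27.5% of all genes, 0 were 2-fold lower, against 19.2%, and 9 did not overlap between groups, against 86.2%. The median log2 fold change was 0.30 for the 10 genes and 0.03 for all genes tested.

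For serine palmitoyltransferase, Sptlc1 had 49.1, 42.2 and 45.3 CPM in tumour libraries, against 51.2, 51.8 and 51.1 CPM in spleen libraries. Every tumour library lay below the spleen libraries, at a log2 fold change of -0.17 ± 0.06, adjusted p = 0.0294. This call was lost without tumour library 2 (-0.09, adjusted p = 0.153), tumour library 3 (-0.14, adjusted p = 0.107), spleen library 1 (-0.15, adjusted p = 0.115), spleen library 2 (-0.15, adjusted p = 0.118) or spleen library 3 (-0.15, adjusted p = 0.113). With DESeq2's size factors it had an adjusted p of 0.117, with DESeq2's Wald test 0.204, and without the filter on low counts 0.0565. Sptlc2 averaged 70.3 ± 1.40 CPM in tumour libraries and 67.4 ± 0.417 CPM in spleen libraries, and its log2 fold change of 0.06 had a 95% interval of -0.04 to 0.16, adjusted p = 0.232. Sptssa averaged 53.4 ± 1.18 CPM in tumour libraries and 50.2 ± 2.58 CPM in spleen libraries, a log2 fold change of 0.09 with an interval of -0.04 to 0.22, adjusted p = 0.172. With DESeq2's size factors both passed, at adjusted p of 0.0223 for Sptlc2 and 0.0231 for Sptssa, and Sptssa had 0.0497 in DESeq2's Wald test.

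Cers6 had 46.0, 54.3 and 59.3 CPM in tumour libraries, against 14.8, 15.2 and 15.7 CPM in spleen libraries. The lowest tumour library was far above the highest spleen library, and the log2 fold change was 1.80 ± 0.10, adjusted p = 1.28e-07. Cers2 averaged 177 ± 4.74 CPM in tumour libraries and 129 ± 4.72 CPM in spleen libraries, a log2 fold change of 0.46 ± 0.05, adjusted p = 1.29e-05. Cers5 averaged 66.6 ± 2.02 CPM in tumour libraries and 52.9 ± 0.795 CPM in spleen libraries, a log2 fold change of 0.33 ± 0.05, adjusted p = 0.000144. Per kilobase, Cers6 made up 6.76% ± 0.728 of the 3 synthases in tumour libraries and 2.74% ± 0.123 in spleen libraries, and Cers2 made up 71.7% in tumour libraries and 73.2% in spleen libraries. With the median transcript length the Cers6 share was 4.26% in tumour libraries and 1.69% in spleen libraries. Cers4, outside the 10, went the other way, at 29.9 ± 2.27 CPM in tumour libraries and 35.9 ± 3.59 CPM in spleen libraries, a log2 fold change of -0.26 ± 0.09, adjusted p = 0.0207, and was named after its values were seen. Its call was lost without spleen library 1 (-0.16, adjusted p = 0.147), spleen library 3 (-0.24, adjusted p = 0.0724) or tumour library 2 (-0.17, adjusted p = 0.0841), and with DESeq2's size factors (adjusted p = 0.0542) or Wald test (adjusted p = 0.0756). Scaled to CD8 T cell genes it turned to 0.84. Cers1, another ceramide synthase outside the 10 and also named after its values were seen, was higher in tumour libraries. It was a minor transcript, at a mean of 1.13 CPM and 68 counts in tumour libraries and 0 counts in spleen libraries.

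Degs1 had 97.5, 99.6 and 96.7 CPM in tumour libraries, against 55.3, 57.1 and 53.3 CPM in spleen libraries. The groups were well apart, with a log2 fold change of 0.83 ± 0.05, adjusted p = 1.94e-07. Degs1 counts were 2.16 ± 0.189 times those of Sptlc1 in tumour libraries and 1.075 ± 0.0297 times in spleen libraries.

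Ugcg had 327, 261 and 313 CPM in tumour libraries, against 249.7, 254.5 and 241.5 CPM in spleen libraries, where tumour library 2 came close to the spleen values. The log2 fold change was 0.27 ± 0.08, adjusted p = 0.00987. Sgms1 averaged 30.5 ± 1.78 CPM in tumour libraries and 28.5 ± 0.884 CPM in spleen libraries, with overlap, and its log2 fold change of 0.10 had a 95% interval of -0.06 to 0.25, adjusted p = 0.219. Its paralogue Sgms2, the sphingomyelin synthase of the plasma membrane, had 18.6, 27.5 and 24.7 CPM in tumour libraries, whereas the 3 spleen libraries together held 1 count of it, a ratio of 1433 with an exact 95% interval of 257 to 56650 that covers counting error only. Ugcg counts were 9.895 ± 1.39 times those of Sgms1 in tumour libraries and 8.72 ± 0.461 times in spleen libraries. Set against Sgms1 and Sgms2 together, they were 5.62 ± 1.07 times in tumour libraries and 8.72 ± 0.456 times in spleen libraries.

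Asah1 had 91.7, 107 and 105 CPM in tumour libraries, against 17.2, 14.8 and 17.7 CPM in spleen libraries. Every tumour library exceeded every spleen library by a wide margin, with a log2 fold change of 2.61 ± 0.09, adjusted p = 7.52e-09. Its counts were 2.24 ± 0.341 times those of Sptlc1 in tumour libraries and 0.322 ± 0.0325 times in spleen libraries. The spleen value was also the low one across the study, since Asah1 averaged 55.5 CPM in ND-646 libraries and 49.6 CPM in vehicle libraries, levels from a separate table that are set side by side without a test.

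The summed connective tissue and fibrosarcoma markers stood at 10680, 15470 and 13690 CPM in tumour libraries 1, 2 and 3, and over the 10 genes tumour library 1, the lowest of the 3, was the lowest for Asah1, Cers6 and Cers2, between the others for Degs1, and the highest for Ugcg, Sptlc1, Sptlc2, Sptssa, Cers5 and Sgms1. In the 3 spleen libraries the sum was 17.3, 3.90 and 2.04 CPM, so that the spleen levels of the 10 genes come from samples nearly free of these markers. Macrophage, monocyte and neutrophil markers summed to 31.5 to 46.5 CPM in tumour libraries and 7.49 to 9.47 CPM in spleen libraries, with 6 of 8 tested genes higher, and endothelial markers to 24.8 to 30.8 CPM in tumour libraries and 0.150 to 0.723 CPM in spleen libraries. B cell markers summed to 59.1 to 75.5 CPM in tumour libraries and 809 to 842 CPM in spleen libraries, with all 6 tested genes lower. The part of these cells in the differences was not tested. Scaled to the 10 CD8 T cell genes, the median gene shifted by 1.11 on the log2 scale, 87.6% of the called genes were higher in place of 52.0%, and all 10 members were higher, Sptlc1 turning to 0.93.

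**Figure D3:**
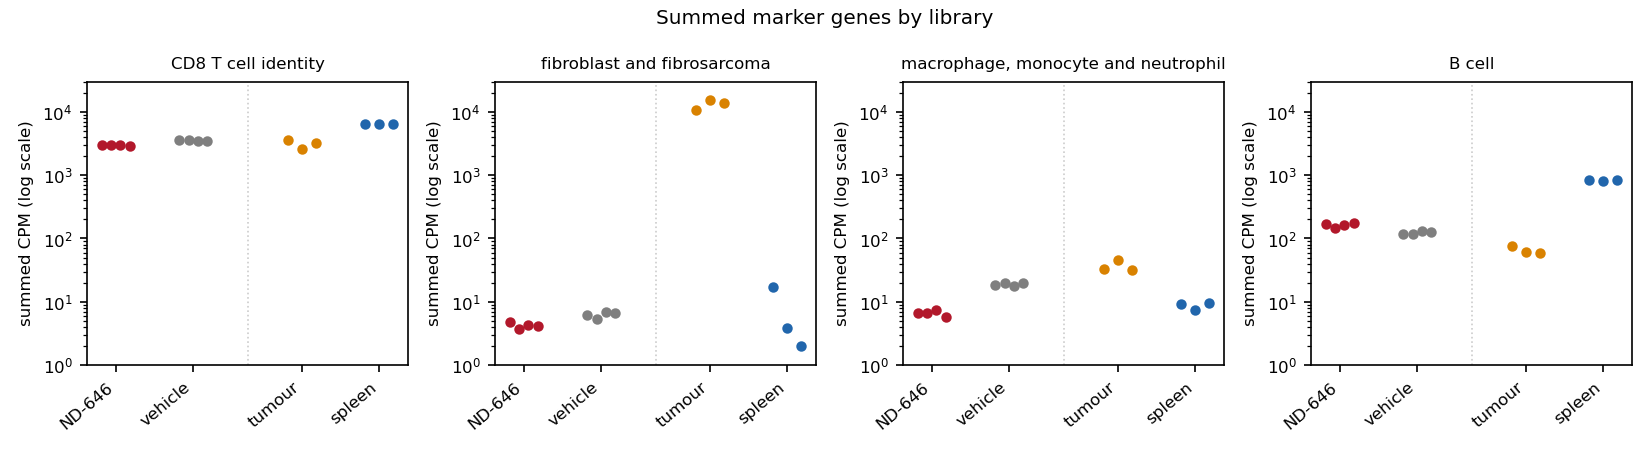
Summed CPM of 4 marker lists (log axis) in every library, ND-646 beside vehicle and tumour beside spleen. Connective tissue and fibrosarcoma markers reach 10678 to 15473 CPM in tumour libraries, above the 2581 to 3522 CPM of the CD8 T cell genes in the same libraries.

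Of 63 other genes of the pathway, 49 could be tested in the cultures, and 13 were higher with ND-646, 19 were lower and 17 were not called, where 29.8% of all genes tested were higher and 26.5% lower. In the group around de novo synthesis 3 of 6 tested genes were higher and 3 lower, against 3 higher and 1 lower when scaled to CD8 T cell genes. With that scaling 7063 of all 14251 genes tested were higher and 2038 lower. Ormdl3, an endoplasmic reticulum inhibitor of serine palmitoyltransferase, was higher, with 47.4, 42.5, 41.1 and 47.4 CPM in ND-646 libraries, against 30.8, 31.7, 30.04 and 31.5 CPM in vehicle libraries. The groups were apart, at a log2 fold change of 0.52 ± 0.05, adjusted p = 1.47e-07. Its paralogues, named after their values were seen, split, since Ormdl2 was lower (13.2 CPM with ND-646, 17.9 CPM with vehicle, adjusted p = 1.43e-05) and Ormdl1 slightly higher (31.2 CPM with ND-646, 28.2 CPM with vehicle, adjusted p = 0.0216). The call of Ormdl1 was lost without ND-646 library 1, ND-646 library 2, vehicle library 1 or vehicle library 4, at adjusted p of 0.0934, 0.0693, 0.0731 and 0.0759, and in DESeq2's Wald test at 0.0564. Kdsr, which carries out the reduction after serine palmitoyltransferase, was 27.7 CPM with ND-646 and 24.6 CPM with vehicle, adjusted p = 0.00742, also named after its value was seen.

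Downstream of Ugcg, 4 of 9 tested genes of glycosphingolipid synthesis were lower with ND-646 and 2 were higher, against 2 lower and 4 higher when scaled to CD8 T cell genes, and 1 higher with DESeq2's size factors. The lactosylceramide synthases, which add galactose to glucosylceramide, were both lower. B4galt5, named after its values were seen, averaged 94.3 ± 5.31 CPM in ND-646 libraries and 146 ± 2.23 CPM in vehicle libraries, a log2 fold change of -0.63 ± 0.04, adjusted p = 4.3e-10. B4galt6 was a minor transcript at 0.0930 CPM in ND-646 libraries and 1.31 CPM in vehicle libraries, adjusted p = 4.77e-08. On the breakdown side, 2 of 12 tested genes were higher and 4 were lower, against 7 higher and 2 lower when scaled to CD8 T cell genes. For both roles the shares over all genes tested were 29.8% higher and 26.5% lower on the TMM scale. Scaled to CD8 T cell genes, 7063 of all 14251 genes tested were higher and 2038 lower. Among the lower ones was Gm2a, the activator of ganglioside GM2 degradation, at 100.3 CPM in ND-646 libraries and 156 CPM in vehicle libraries (adjusted p = 6.37e-10). The saposin precursor Psap was higher, at 359 CPM in ND-646 libraries and 291 CPM in vehicle libraries, a log2 fold change of 0.31 (adjusted p = 6.27e-07), and was named after its values were seen. Smpdl3b, a sphingomyelinase-like phosphodiesterase, was lower at 4.70 CPM with ND-646 and 9.79 CPM with vehicle, adjusted p = 1.13e-08.

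Of 3 tested ceramidases outside the 10, 2 were higher with ND-646 and 1 was lower. Of all genes tested, 29.8% were higher and 26.5% lower. Scaled to CD8 T cell genes, 2 of the 3 were higher and 0 lower, where 7063 of all 14251 genes were higher and 2038 lower. The Golgi ceramidase Acer2 rose, with 6.30 to 7.80 CPM in ND-646 libraries and 3.15 to 3.83 CPM in vehicle libraries, a log2 fold change of 0.98 ± 0.11, adjusted p = 5.73e-07. The neutral ceramidase Asah2 rose as well, to 11.4 CPM in ND-646 libraries, against 8.39 CPM in vehicle libraries, adjusted p = 0.000265. Acer3, an alkaline ceramidase named after its values were seen, was lower, at 8.34 ± 0.890 CPM in ND-646 libraries and 10.2 ± 0.881 CPM in vehicle libraries, with overlap, adjusted p = 0.00949, or 0.263 when scaled to CD8 T cell genes. Sphk2, a kinase that makes sphingosine 1-phosphate, was at 56.4 CPM with ND-646 and 41.4 CPM with vehicle (adjusted p = 1.68e-07), and Sgpl1, the lyase that destroys it, at 78.0 CPM with ND-646 and 61.9 CPM with vehicle (adjusted p = 2.27e-06). Of 6 tested genes for export and receptors of sphingosine 1-phosphate, 3 were lower and 1 was higher. On the TMM scale the shares over all genes are those given above, 26.5% lower and 29.8% higher. Scaled to CD8 T cell genes, 2 of the 6 were lower and 1 was higher, against 2038 lower and 7063 higher of all 14251. S1pr3 was at 1.35 to 1.73 CPM in ND-646 libraries and 5.97 to 6.65 CPM in vehicle libraries, adjusted p = 1.52e-10, and S1pr1, the receptor for exit from lymph nodes, at 46.4 CPM with ND-646 and 63.8 CPM with vehicle, adjusted p = 0.000429. Sgpl1 and S1pr1 were named after their values were seen.

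In the tumour experiment 55 of the 63 could be tested, and 24 were higher in tumour libraries, 22 were lower and 9 were not called, where 43.6% of all genes tested were higher and 40.2% lower. Of 7 tested genes around de novo synthesis 2 were higher and 3 lower, against 6 higher and 1 lower when scaled to CD8 T cell genes. With that scaling 10943 of all 15042 genes tested were higher and 1549 lower. Kdsr was lower, at 21.6 ± 1.02 CPM in tumour libraries and 34.8 ± 2.26 CPM in spleen libraries, a log2 fold change of -0.69 ± 0.08, adjusted p = 1.68e-05, but scaled to CD8 T cell genes it turned to 0.42 with an adjusted p of 0.0230. Degs2, the relative of Degs1 that also makes phytoceramide, was 1.28 CPM in tumour libraries and 10.4 CPM in spleen libraries, a log2 fold change of -3.03 ± 0.29, adjusted p = 7.95e-06, opposite in direction to Degs1. Of 5 tested genes of ceramide transfer and sphingomyelin-type head groups, 3 were higher and 2 were not called. Scaled to CD8 T cell genes, all 5 were higher, as were 10943 of all 15042 genes tested. Among the 3 were Sgms2 and Col4a3bp, the protein that carries ceramide to the Golgi. Col4a3bp had 105 ± 8.78 CPM in tumour libraries and 74.6 ± 2.62 CPM in spleen libraries, adjusted p = 7.39e-05. Kdsr and Col4a3bp were named after their values were seen.

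Genes of glycosphingolipid synthesis split evenly in tumour libraries, 5 higher and 5 lower of 10 tested, against 6 higher and 4 lower when scaled to CD8 T cell genes. Over all genes tested 43.6% were higher and 40.2% lower, and with that scaling 10943 of 15042 were higher and 1549 lower. A4galt, the globotriaosylceramide synthase, had 12.3, 19.3 and 14.4 CPM in tumour libraries and no count in the 3 spleen libraries, at least 310.2-fold higher when spleen is set at 3 counts over the group. B4galt6 stood at 18.3 ± 2.58 CPM in tumour libraries and 0.0659 CPM in spleen libraries, adjusted p = 2.94e-08, and B4galt5 at 167 ± 19.4 CPM in tumour libraries and 70.7 ± 4.05 CPM in spleen libraries, adjusted p = 9.15e-07. The ganglioside enzymes differed among themselves. St3gal5, the GM3 synthase at the start of that series, was higher, at 11.4 ± 0.0404 CPM in tumour libraries and 0.594 ± 0.141 CPM in spleen libraries, a log2 fold change of 4.26 ± 0.19, adjusted p = 3.37e-08. St8sia1, the GD3 synthase, was lower and had 10.3, 7.44 and 5.45 CPM in tumour libraries, against 91.0, 91.8 and 84.6 CPM in spleen libraries, a log2 fold change of -3.53 ± 0.17, adjusted p = 2.32e-07. B4galnt1, which makes GM2 and GD2, was 391 ± 57.3 CPM in tumour libraries and 1029 ± 17.6 CPM in spleen libraries, a log2 fold change of -1.40 ± 0.09, adjusted p = 7.62e-07, and -0.30 when scaled to CD8 T cell genes. St3gal5, B4galt5 and B4galnt1 were named after their values were seen.

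Among ceramidases, Asah2 was higher (16.0 CPM in tumour libraries, 4.46 CPM in spleen libraries, adjusted p = 6.33e-06) and Acer2 lower (1.82 CPM in tumour libraries, 7.12 CPM in spleen libraries, adjusted p = 4.13e-06). The sphingosine kinases were opposite, since Sphk1 reached 9.06 CPM in tumour libraries with 3 counts in all spleen libraries together, a ratio of 183.5 with an exact 95% interval of 62.5 to 893 that covers counting error only. Sphk2 was 29.4 CPM in tumour libraries and 64.5 CPM in spleen libraries, adjusted p = 1.03e-07, but -0.03 with an adjusted p of 0.837 when scaled to CD8 T cell genes. Sgpl1 was higher at 105 CPM in tumour libraries and 63.3 CPM in spleen libraries, adjusted p = 8.57e-07. S1pr1 had 105.9, 98.5 and 63.6 CPM in tumour libraries, against 469.6, 470.5 and 477 CPM in spleen libraries, far apart at a log2 fold change of -2.40 ± 0.17, adjusted p = 5.51e-06. S1pr5 was also lower (0.478 CPM in tumour libraries, 2.15 CPM in spleen libraries, adjusted p = 0.000138), and S1pr2 higher (38.7 CPM in tumour libraries, 7.00 CPM in spleen libraries, adjusted p = 6.21e-08). S1pr3 stood at 5.03 CPM in tumour libraries with 1 count in all spleen libraries together, a ratio of 304.9 with an exact interval of 54.3 to 12080. Asah2, Acer2, Sphk1, Sphk2, Sgpl1 and S1pr2 were named after their values were seen.

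**Figure D4:**
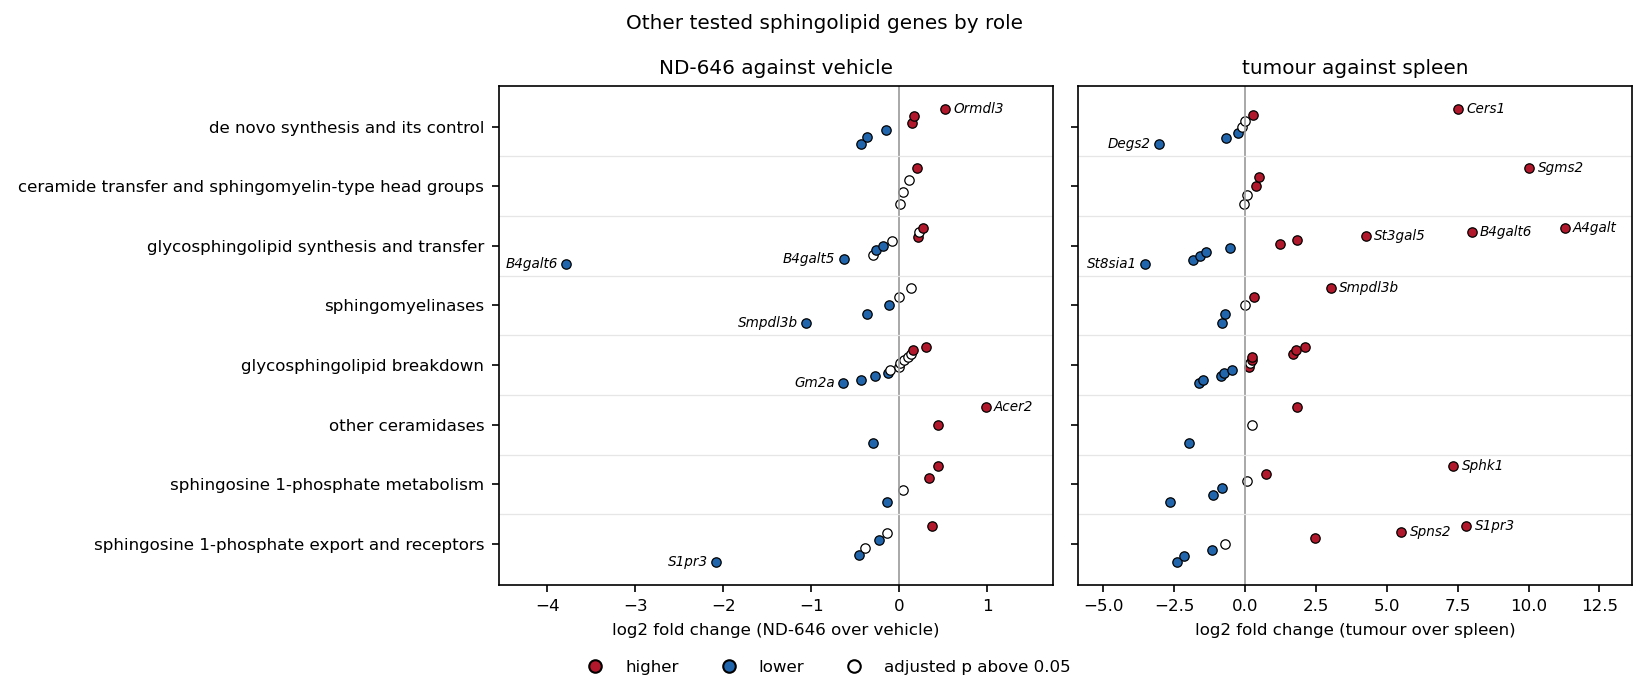
Log2 fold changes of the other tested sphingolipid genes by role, ND-646 over vehicle left and tumour over spleen right, with filled points past an adjusted p of 0.05. A4galt and Cers1 had no count in spleen libraries and Sgms2, S1pr3 and Sphk1 had 1 to 3, so their plotted fitted values depend on the model and are not bounds; labels name the points farthest from 0.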

How the data were processed

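Poly(A) RNA of 14 libraries was sequenced as paired reads of 150 bases with a directional kit, per the labels' protocols. The authors deposited estimated counts per gene symbol in one table for each experiment, and 3 tools, STAR, Salmon and DESeq2, are listed per the submitters' processing notes. Genome build, annotation, strand setting and versions: not given in the sources used here. The counts were rounded to whole numbers and tested with edgeR 4.0.16 (R 4.3.3) by quasi-likelihood with TMM normalization, separately for each table, after edgeR's filter on low counts. P-values were adjusted over all genes by Benjamini and Hochberg, and calls use 0.05. CPM are scaled to the TMM-adjusted total of each library. The script was tested on simulated data with 50 genes changed at each of several folds. At 1.25-fold it recovered 64% of them in the culture design and 28% in the tumour design. At 2-fold it recovered 98% and 90%. Of all simulated calls, 9.95% were false in the culture design and 6.8% in the tumour design. The simulated sets gave 191 calls of 14080 genes in the culture design and 147 of 14713 in the tumour design. In the data 56.3% and 83.8% of genes were called, so these simulated rates may not carry over. Levels per kilobase used GENCODE M21, which held 53292 of the 55291 symbols.

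The members and lists were chosen with earlier results of these data known. The rule for other named genes took the 4 with the largest change in each direction past the threshold, with a mean of at least 1 CPM in a group. Alternatives were DESeq2's size factors and Wald test (1.42.0), limma-voom (3.58.1), scaling to CD8 T cell genes, other filters on low counts, a replicate block and leaving out each library. A floor of 3 counts stands for 0, and 95% intervals of ratios cover counting error only. Libraries of each group differed by more than sampling noise. Shared replicate numbers were not taken to pair the samples, and the labels do not say whether same-numbered libraries share a source.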

Additional observations from a re-analysis of the deposited data

Results flagged for a closer look

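Of 54 groups of 4 culture libraries checked, 5 held a library whose gap to its nearest neighbour took up more of the group's range than Dixon's 95% critical value, and chance alone would give such a gap in about 1 group in 20. Sptssa was 48.05 CPM in ND-646 library 1 and 42.49 to 42.84 CPM in the other ND-646 libraries, a gap of 0.937 of the range. Ugcg was 204.1 CPM in vehicle library 2 and 219.7 to 222.3 CPM in the other vehicle libraries, a gap of 0.855, and this low vehicle library still lay above every ND-646 library. Asah2 was 9.30 CPM in vehicle library 1 and 8.02 to 8.21 CPM in the other vehicle libraries, a gap of 0.849. Acer3 was 9.67 CPM in ND-646 library 3 and 7.80 to 7.96 CPM in the other ND-646 libraries, a gap of 0.913, and 8.87 CPM in vehicle library 4 and 10.49 to 10.73 CPM in the other vehicle libraries, a gap of 0.87.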

How the results depend on the processing

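The calls of Ugcg, Cers6, Cers5, Sgms1 and Asah1 with ND-646, and of Asah1, Cers6, Degs1, Cers2, Cers5 and Ugcg in tumour libraries, kept their direction and side of the threshold under every alternative run. Scaled to CD8 T cell genes, 1 member was lower with ND-646, and of the other pathway genes 25 were higher and 9 lower. On that scale 7063 of all 14251 genes tested were higher and 2038 lower. Sptlc2 then turned to 0.0933, Degs1 to 0.0437 and Cers4 to 0.0234 on the log2 scale. In tumour libraries the same scaling gave 10 members higher and 0 lower, 37 other genes higher and 11 lower, with Sptlc1 at 0.93, Cers4 at 0.84 and Kdsr at 0.42. It called 10943 of all 15042 genes tested higher there and 1549 lower. By construction it moves every gene by about the mean drop in those CD8 T cell genes. The count of members lower in tumour libraries was 0 with DESeq2's size factors, with its Wald test and with no filter on low counts, each through the call of Sptlc1. Leaving out a library, members lower numbered 1 to 2 with ND-646 and 0 to 1 in tumour libraries. With replicate number as a block 7864 genes were called in the cultures and 12492 in the tumour table, and no call of a member changed. Same-numbered libraries deviated with correlations of -0.116 to 0.073 in the cultures and -0.052 to -0.019 in the tumour table, so the numbers were not taken to pair the samples. At this depth 3 counts equal 0.0878 to 0.154 CPM.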

Other observations

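Dendritic cell markers summed to 3.18 to 3.82 CPM with ND-646, 5.67 to 6.58 CPM with vehicle, 15.1 to 23.6 CPM in tumour and 6.49 to 8.87 CPM in spleen libraries. Of their 3 tested genes in the cultures, Xcr1 was lower (0.181 CPM with ND-646, 4.53 CPM with vehicle) and Zbtb46 higher (2.81 CPM with ND-646, 0.977 CPM with vehicle). In tumour libraries 3 of 5 tested were higher and Clec9a was lower. CD4 and regulatory T cell markers summed to 166 to 176 CPM with ND-646, 148 to 152 CPM with vehicle, 102 to 114 CPM in tumour and 33.7 to 37.4 CPM in spleen libraries. With ND-646 only 1 of these 5 markers was higher, Zbtb7b, at 152 CPM against 119 CPM with vehicle. The other 4 were lower, Cd4 and Foxp3 among them. In tumour libraries 2 of the 5 were higher, while Cd4, Foxp3 and Cd40lg were not called. NK cell markers summed to 41.1 to 68.0 CPM in tumour and 5.89 to 8.38 CPM in spleen libraries. Connective tissue markers summed to 3.75 to 4.87 CPM with ND-646 and 5.28 to 6.79 CPM with vehicle. Erythroid and platelet markers summed to 0.0636 to 0.351 CPM with ND-646, 0.597 to 1.246 CPM with vehicle, 0.247 to 0.462 CPM in tumour and 0.193 to 0.748 CPM in spleen libraries, and endothelial markers to at most 0.159 CPM with ND-646 and 0.280 to 0.426 CPM with vehicle. The most abundant gene of the CD8 T cell list, Cd8a, averaged 475 CPM with ND-646 and 725 CPM with vehicle, and 963 CPM in tumour and 1549.8 CPM in spleen libraries. Ighm, the most abundant B cell marker, averaged 162 CPM with ND-646 and 115 CPM with vehicle, and 57.5 CPM in tumour and 704 CPM in spleen libraries. Among the other lists, Cd68 averaged 4.41 CPM with ND-646 and 13.6 CPM with vehicle, and Fcer1g 2.86 CPM with ND-646 and 14.4 CPM with vehicle. In the tumour experiment Cd14 averaged 13.3 CPM in tumour libraries and was at 0 in spleen libraries, and Cdh5 averaged 11.1 CPM in tumour and 0.278 CPM in spleen libraries.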
